A study of Mus musculus with 30 samples.

Results

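Ion channels and transmitter receptors let a cell respond to voltage, calcium and chemical signals, and 18 such genes by name, each with 1 probe, were followed over 15 tissues of the adult mouse. The members were taken by a rule on gene names, which was set with earlier results of these data known. A probe of the authors' value table was taken when the symbol beside it in the study's probe lists began with the letters of a channel or receptor family (Kcn, Scn, Cacn, Clcn, Trpc, Trpm, Trpv, Gabr, Gria, Grin, Grik, Grm, Glr, Chrn, Chrm, Htr, Drd, Ryr or P2rx). Of the 25030 probes in the table, 5622 (22.5%) had a symbol in those lists. Of the 18 members, 13 were named by a list of genes of chromosome 1, so that chromosome is over-represented and many channel genes of the mouse were not named here. By their function 14 members are channels or receptors. The other 4 share only the first letters of their symbol: Glrp1 (glutamine repeat protein), Glrx2 (a mitochondrial glutaredoxin), Grinl1a (now called Polr2m, which binds RNA polymerase) and Scnm1 (an RNA splicing factor). They were kept because the rule includes them, and they are described apart.

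The tissues were, of the nervous system and senses, brain cortex, cerebellum and eyes, of the gut, stomach, small intestine and large intestine, and further heart, muscle, bone, skin, visceral fat, lung, liver, kidney and bladder. All came from male C57BL/6 mice that were adult, with an age of 28 weeks in the labels, and no treatment is named. Each tissue was measured on 2 arrays, 30 in all, from different animals, but the series' design text says that bone and fat had a single replication, so what the spread between their 2 arrays covers is not known. Each array carried tissue RNA in the Cy3 channel. The Cy5 channel carried the same reference throughout, the Stratagene Universal Mouse Reference RNA (a pool of RNA from mouse cell lines, a muscle myoblast line among them) mixed with RNA of MC1 ES cells. Values are log2(Cy3/Cy5). For bright spots 0 means as much as in the reference and 1 means a level about 2-fold higher. An offset of 50 was added to both channels, which draws the ratio of dim spots towards 0. The Cy5 signal was well above background on 0 of 30 arrays for Cacna1e, Kcnb2, Htr2b and Trpm8 and on 4 for Kcnq5 and Kcne4. For these members a value near 0 is not a level equal to the reference. Each tissue piece was whole tissue, and in such bulk samples fewer cells of a type and less RNA per cell cannot be told apart.

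Voltage-gated potassium channels end and pace electrical firing, and voltage-gated calcium channels turn the electrical signal into calcium entry or, in skeletal muscle, into contraction. Chloride transporters of the Clcn6 and Clcn7 kind lie in the membranes of endosomes and lysosomes. Ligand-gated receptors open on binding acetylcholine or GABA, whereas most serotonin receptors signal through G proteins. Many of these genes are known from neurons, and others belong to skeletal muscle, to smooth muscle or to organelles found in every cell.

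Probes that carried tissue differences are printed here, because the result of a probe depends on the exact bases that it reads. Each is the spotted oligonucleotide of 60 bases, 5′ to 3′, as in the array files.
Cacna1e: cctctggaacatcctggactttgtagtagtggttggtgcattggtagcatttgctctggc
Kcnt2: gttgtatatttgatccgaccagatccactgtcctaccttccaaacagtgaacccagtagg
Htr2b: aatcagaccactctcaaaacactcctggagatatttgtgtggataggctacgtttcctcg
Cacna1e encodes a neuronal calcium channel, Kcnt2 a potassium channel gated by sodium, and Htr2b a serotonin receptor of smooth muscle and other tissues. No probe was placed on an exon or an untranslated region, since no genome of the array's build was used here.

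Cy3 was well above background on 53.9% to 76.9% of the probes of an array. The 2 arrays of a tissue correlated above 0.9 in 12 of 15 tissues, and at 0.848 in bone, 0.798 in large intestine and 0.671 in fat. Values of both arrays are therefore given where a tissue is described. Marker genes were set beside the tissue labels. Their lists were chosen with earlier results of these data known, so they are no independent check of the labels. Neuron markers (18 probes) had a median log2 ratio of 3.29 to 3.69 on the brain arrays and 1.62 and 2.22 in the eyes, against -0.14 to 0.4 elsewhere. Skeletal muscle markers (14 probes) had a median of 4.26 and 4.61 in muscle, but also 4.29 and 2.95 in bone, 2.01 and 3.63 in skin and 0.9 and 1.12 in the eyes, and all 14 were above background on those arrays. Bone, skin and eye samples thus carried RNA of skeletal muscle genes, and 9 of the 14 markers were called enriched in bone and 9 in skin by the test described next.

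A probe was tested when 1 or more tissues had Cy3 well above background on each of their arrays and every tissue had a value, which held for 21025 probes (84%) and for 16 of the 18 members. The 2 members left out were Chrng and Trpm8. Tests were run with limma over all 21025 probes, with Benjamini-Hochberg adjustment. An F-test asked whether the 15 tissues differed. An enrichment contrast set each tissue against the mean of the other 14, with a call where the adjusted p was under 0.05 and the log2 difference 2 or more. In addition, 5 comparisons between chosen tissues had the same limit for the adjusted p and a log2 difference of 1 or more in size. With 2 arrays a tissue the number of arrays limits the precision, and the p-values measure only the spread between these arrays. Both arrays shared a slide for cerebellum, eyes, liver, heart, kidney, bladder, skin and stomach. For these tissues that spread holds no difference between slides. With slide as a random block the correlation within slides was 0.692. By the F-test all 16 tested members differed among tissues, beside 90.7% of all tested probes. A member that passed the filter only through the tissue where it was high had to differ, so nothing is read from that count.

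**Figure D1:**
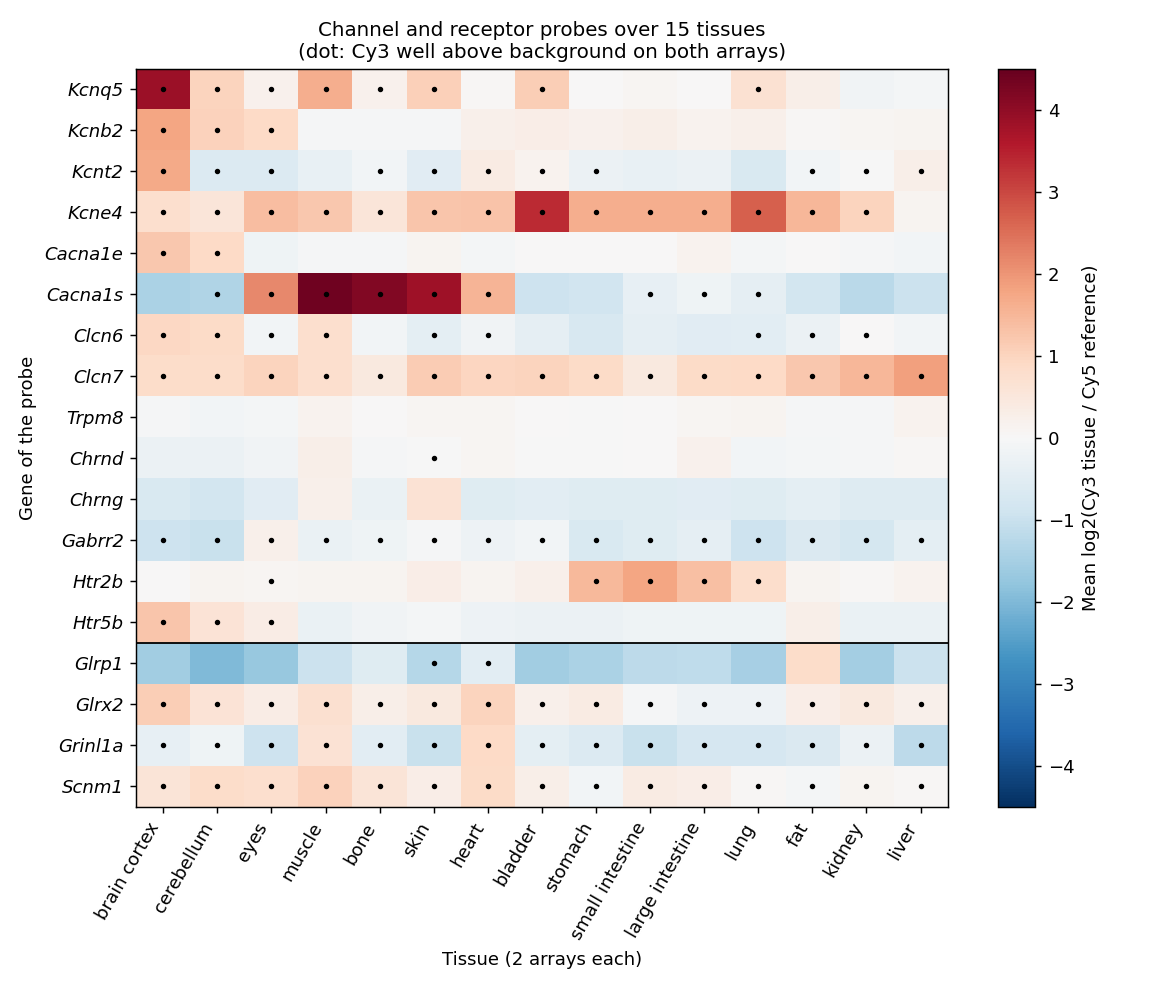
Mean log2(Cy3/Cy5) of the 18 members (vertical axis) in the 15 tissues (horizontal axis). Colour gives the mean of 2 arrays, a dot marks a tissue whose arrays were both well above background in Cy3, and the line sets apart the 4 probes that are no channel or receptor. Cacna1s reached 4.39 in muscle, 4.18 in bone and 3.81 in skin, Kcnq5 3.85 in brain cortex and Kcne4 3.37 in bladder, while Trpm8 had no dot in any tissue.

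Enrichment in 1 tissue was called for 6 pairs of a member and a tissue. With the processed signals, the Cy3 level alone or the values in the authors' table there were 20 or 21. The 6 fell on 4 of the 16 tested members, beside 34.1% of all tested probes that were enriched in at least 1 tissue. The members were Cacna1s in muscle, bone and skin, Kcnq5 in brain cortex, Kcne4 in bladder and Glrp1 in fat. Another description is the count of members for which both arrays of 1 tissue lay above the 28 arrays of the others, which was 10 of 16, beside 51.4% of all tested probes with a value on every array. The information measure, log2 of 15 minus the entropy of a probe's shares over the tissues, runs from 0 for equal levels to 3.91 bits for a single tissue. Its median was 0.112 bits over the tested members and 0.159 over all tested probes. Cacna1s stood at 1.35 bits and was the only member above 1 bit. Kcnq5 followed with 0.766 and Kcne4 with 0.296. The median of the members became 0.459 with the processed signals and 0.635 by the Cy3 level alone.

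In brain, 5 members were higher than in the 12 non-neural tissues: the potassium channels Kcnq5 and Kcnb2, the calcium channel Cacna1e, the serotonin receptor Htr5b and the endosomal transporter Clcn6. Cacna1s was lower. The other 10 of the 16 tested members did not pass the test. Among all probes 15.5% were higher and 16.1% lower in brain, 31.6% in either direction. Kcnb2, Cacna1e and Htr5b passed the filter only through brain tissues or eyes, so nothing is read from the count of 5. The brain value is the mean of cortex and cerebellum, and eyes, which hold retina, were left out of both sides.

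Kcnq5 encodes a subunit of the channels that carry the M-current, a slow potassium current that damps repeated firing. Its log2 ratio was 3.98 and 3.71 in brain cortex and 1.03 and 0.94 in cerebellum. Muscle gave 1.75 and 1.53, bladder 0.91 and 1.28, skin 0.51 and 1.61, and lung 0.54 and 0.86, all above background. The fat arrays disagreed, with 0.58 above background and -0.01 not. Cortex therefore stood apart from every other array, and cerebellum lay within the range of bladder, skin and lung. Brain exceeded the non-neural tissues by 2.01 ± 0.14 (SE, adjusted p = 1.9e-10), and cortex exceeded the other 14 tissues by 3.41 ± 0.18 (adjusted p = 1.7e-11, beside 7.17% of probes enriched there). In 6 tissues neither array was above background, and over them the Cy3 level of cortex was at least 16.2-fold to 18.4-fold higher. Bounds of this kind set the bright tissue against the dimmest signal called above background on each array. Where the probe's own Cy3 level was higher than that signal, its own level was used. With no dye swap the bounds are open to dye bias. Muscle was also above the mean of the other 14 by 1.05 ± 0.18 (adjusted p = 9.82e-05), which is under the log2 difference of 2.

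Kcnb2, a delayed rectifier potassium channel of neurons, had log2 ratios of 2.15 and 1.37 in cortex, 0.94 and 1.14 in cerebellum and 0.72 and 1.05 in eyes. In the other tissues it lay between -0.12 and 0.41, and only the second lung array was above background, at 0.35. The neural tissues and the rest did not overlap. The probe passed the filter only through cortex, cerebellum and eyes, so the brain difference of 1.28 ± 0.1 is given as a description, although it counts among the 5 members called. Cortex was higher by at least 2.71-fold to 3.51-fold in Cy3 level over 11 tissues below background. With median centring the brain difference was 0.97, under the log2 difference of 1, and the call was lost, while in 4 other settings of background and scaling it was larger, from 1.91 to 3.55.

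Cacna1e encodes the pore of a neuronal calcium channel that opens during action potentials. Its probe, printed above, was well above background on the 4 brain arrays and on none of the other 26. Cortex gave 1.75 and 0.71 and cerebellum 0.86 and 0.89, whereas the other tissues, eyes included, ranged from -0.25 to 0.16. The brain arrays did not overlap with the rest, but the 2 cortex arrays enclosed both cerebellum arrays. The probe passed the filter only through the brain tissues, so it had to be higher there, and its difference of 1.07 ± 0.11 is given as a description, although it counts among the 5 members called. The Cy3 level of brain was at least 1.84-fold that of the non-neural tissues, where no array was above background. With median centring in place of loess the log2 difference was 0.76, with slide as a random block 0.77 and without the first cortex array 0.81, all under the log2 difference of 1. With an offset of 10, the processed signals, the Cy3 level alone or the values in the authors' table it was larger, from 1.72 to 3.37.

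Htr5b, a G protein-coupled serotonin receptor, was highest in the tissues in which Kcnb2 was: 1.63 and 0.84 in cortex, 0.5 and 0.71 in cerebellum, and 0.4 and 0.25 in eyes. Outside them only 3 arrays were above background, among them the first fat array at 0.57 beside -0.02 on the second. The fat array lay within the range of cerebellum. This probe, too, passed the filter only through cortex, cerebellum and eyes, and the brain difference of 1.1 ± 0.12 is a description for that reason. It was 1.82 to 3.41 with an offset of 10, the processed signals, Cy3 alone or the values in the authors' table, and 0.83 to 0.91, under the log2 difference of 1, with median centring, with slide as a random block or without the first cortex array.

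Clcn6, an exchanger of chloride for protons in late endosomes, gave 0.93 and 0.94 in cortex, 0.91 and 0.83 in cerebellum and 0.76 and 0.75 in muscle. All other arrays lay between -0.73 and 0.12, so brain and muscle formed the high group without overlap. Brain was higher than the 12 non-neural tissues, muscle among them, by 1.14 ± 0.09 (adjusted p = 1.18e-09), while muscle was above the other 14 by 0.89 ± 0.12 (adjusted p = 4.86e-06). Cortex had the highest mean, but muscle or cerebellum had it under other scalings, and the means of 0.94, 0.87 and 0.75 are close.

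**Figure D2:**
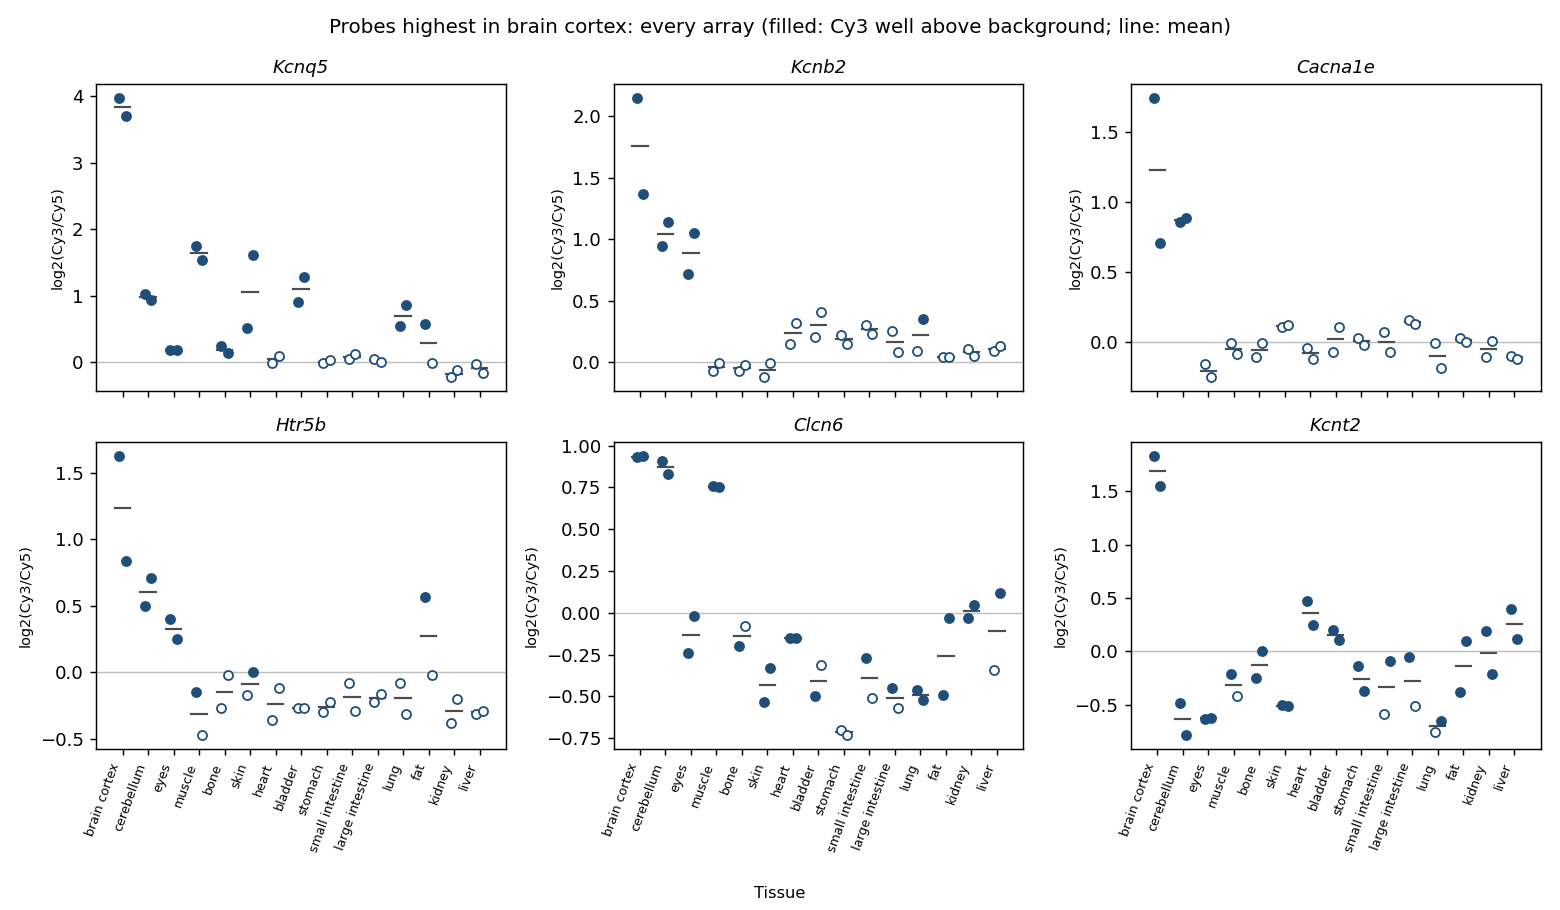
Log2(Cy3/Cy5) on every array (vertical axes) of Kcnq5, Kcnb2, Cacna1e, Htr5b, Clcn6 and Kcnt2, by tissue (horizontal axes). Filled points are arrays with Cy3 well above background and a short line marks the mean of the 2 arrays. The cortex points of Kcnq5 (3.98 and 3.71) and Kcnt2 (1.83 and 1.55) stand above all others, while Cacna1e is filled only on the 4 brain arrays.

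Cortex and cerebellum were then compared with each other. Kcnq5 and Kcnt2 were higher in cortex and no member was lower, beside 3.2% of all probes higher and 2.27% lower (5.46% in either direction). Kcnq5 averaged 3.85 in cortex and 0.99 in cerebellum, a log2 difference of 2.86 ± 0.25 (adjusted p = 2.25e-07). Kcnt2, whose probe is printed above, encodes a potassium channel that opens as sodium enters the cell. It gave 1.83 and 1.55 in cortex and -0.48 and -0.78 in cerebellum, a difference of 2.32 ± 0.21 (adjusted p = 3.41e-07). Cerebellum was among the lowest tissues for Kcnt2, with eyes at -0.63 and -0.62, and heart followed cortex with 0.47 and 0.25. The regions of the brain thus lay near opposite ends of its range, and brain against the non-neural tissues was not called.

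The other brain members did not separate the regions by the same measure. The difference was 0.73 ± 0.19 for Kcnb2 (adjusted p = 0.0163), 0.63 for Htr5b (adjusted p = 0.0909) and 0.36 for Cacna1e (adjusted p = 0.451). For these 3 members the first cortex array was above the second. On the slide that held both regions, with cortex as the first array alone, the differences were 3 for Kcnq5, 2.46 for Kcnt2, 1.11 for Kcnb2, 1.03 for Htr5b and 0.87 for Cacna1e. Without the second cortex array 4 members were called higher in cortex. With the scanner's processed signals or with the values of the authors' table, 1 member was called, and the difference of Kcnq5 was then 1.85 (adjusted p = 0.162 and 0.119).

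Within the arrays of the first scan day, which held brain, lung, liver, heart, kidney and bladder, and of cortex only the first array, the higher one for Kcnq5, Htr5b, Cacna1e and Kcnb2, brain exceeded the 5 non-neural tissues by 2.14 for Kcnq5, 1.4 for Htr5b, 1.39 for Cacna1e, 1.38 for Kcnb2 and 1.13 for Clcn6. Cacna1s was lower by 2.09 ± 0.18 in brain over all arrays (adjusted p = 9.18e-09). On that scan day, without muscle, bone and skin, its difference was -1.11. The neuron markers moved with these members. Of the 18, 16 were higher in brain with a median log2 difference of 2.78.

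Eyes were set against brain because both hold neurons. Cacna1s and Gabrr2 were higher in eyes and Kcnq5, Cacna1e, Kcnt2 and Clcn6 were lower, beside 12.4% of all probes higher and 9.24% lower (21.6% in either direction). The median difference was -0.25 over the members and 0.01 over all probes. Gabrr2 encodes a rho subunit of GABA receptors known from the retina. Its log2 ratio was 0.08 and 0.37 in eyes, -0.94 and -0.95 in cortex and -1.02 and -0.98 in cerebellum. Skin, at 0.24 and -0.35, overlapped with the eyes. The difference from brain was 1.2 ± 0.14 (adjusted p = 1.19e-06), but eyes exceeded the other 14 tissues by only 0.75 ± 0.12 (adjusted p = 3.9e-05). With median centring the difference from brain was 0.87, under the log2 difference of 1. The signal was above background on all 30 arrays, and the highest tissue became bladder with median centring and heart by the Cy3 level alone. Of 14 tested retina and lens markers, 12 were higher in eyes than in brain.

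Of the members that were lower in eyes, Kcnq5 differed by -2.24 ± 0.22 (adjusted p = 1.4e-07), Kcnt2 by -1.15 ± 0.18 (adjusted p = 4.95e-05) and Clcn6 by -1.03 ± 0.14 (adjusted p = 8.34e-06). For Kcnt2 the brain mean joins cortex at 1.69 and cerebellum at -0.63, and eyes lay at the level of cerebellum. The difference of Clcn6 was -0.93 without the first eye array, under 1 in size. Cacna1e, tested only because brain was above background, differed by -1.26 ± 0.18, a description for the same reason, and by values from -0.78 with slide as a random block to -5.05 by the Cy3 level alone. Neither eye array was above background for it, and its Cy3 level in brain was at least 2.07-fold higher. Kcnq5 was at 0.18 on both eye arrays, with Cy3 signals of 68.4 and 72.6 and Cy5 signals of 67.8 and 71.6. Both channels were dim, so this is not a level equal to the reference. Kcnb2 and Htr5b, which were above background in eyes, did not pass. Cacna1s was higher in eyes by 3.56 ± 0.3 (adjusted p = 1.7e-08), and the skeletal muscle markers were above background on both eye arrays with medians of 0.9 and 1.12. Their part in the result was not tested.

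Cacna1s had the largest differences of the members. It encodes the calcium channel of the transverse tubules, which senses the voltage that triggers contraction of skeletal muscle. Its log2 ratio was 4.37 and 4.41 in muscle, 4.4 and 3.96 in bone and 3.49 and 4.13 in skin. Eyes gave 2.07 and 2.25 and heart 1.38 and 1.69, while the other 10 tissues lay between -1.62 and 0.04. The order followed the skeletal muscle markers, with bone and skin next to muscle and then eyes. Enrichment over the other 14 tissues was 4.17 ± 0.25 in muscle (adjusted p = 2.85e-10), 3.94 ± 0.25 in bone (adjusted p = 1.29e-09) and 3.55 ± 0.25 in skin (adjusted p = 2.98e-09), beside 3.52%, 3.16% and 3.61% of probes enriched there. Muscle exceeded liver and kidney, where neither array was above background, by at least 411-fold to 467-fold in Cy3 level.

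The reference channel of this probe was not constant. Its Cy5 mean signal was 3440 and 4770 scanner units on the muscle arrays, 1310 and 966 on bone, 619 and 1200 on skin, 374 and 401 on eyes and 427 and 332 on heart. On the 20 arrays of the other 10 tissues it was 256 to 385, although the same reference RNA was used. The Cy3 signal was 31500 and 35900 in muscle, 6020 and 6340 in bone, 1690 and 5080 in skin, 700 and 919 in eyes and 364 and 318 in heart, against 64.1 to 198 in the other tissues. Where Cy3 was brightest Cy5 was also high, so the log2 ratio spread the tissues less than the Cy3 level did. The cause was not tested. The same was seen to a lesser degree for Kcnq5, with a Cy5 signal of 129 and 126 in cortex against 62.8 to 101 on the other 28 arrays.

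Heart and skeletal muscle, the striated muscles of the series, differed in 2 members. Both were lower in heart, and among all probes 9.17% were higher and 6.02% lower (15.2% in either direction). Cacna1s averaged 1.53 in heart and 4.39 in muscle, a difference of -2.86 ± 0.34 (adjusted p = 4.67e-06), and by the Cy3 level alone of -6.55 (adjusted p = 1.72e-05). Kcnq5 averaged 0.04 in heart, where it was not above background, and 1.64 in muscle. The difference was -1.6 ± 0.25 (adjusted p = 9.47e-05), or at least 2.84-fold in Cy3 level. Clcn6 was -0.9 ± 0.16 (adjusted p = 0.000341), under the log2 difference of 1. Of the skeletal muscle markers 9 of 14 were lower in heart. No slide or scan day held both tissues, so batch and group cannot be told apart.

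Muscle and bone were compared because bone carried muscle genes. Cacna1s differed by 0.21 ± 0.34 (adjusted p = 0.727) in the ratio and by 2.05 ± 0.85 (adjusted p = 0.0793) in the Cy3 level alone, so no difference was called, although every muscle array was brighter in Cy3 than either bone array. With the processed signals and with the values in the authors' table the difference was -0.05, and bone was the highest tissue. Kcnq5 was higher in muscle by 1.45 ± 0.25 (adjusted p = 0.000231), with 0.24 and 0.14 in bone. Grinl1a, one of the 4 members that are no channels, was higher by 1.11 ± 0.21 (adjusted p = 0.000447). Beside these 2 members 8.2% of all probes were higher in muscle and 11.3% lower (19.5% in either direction). Of the skeletal muscle markers 9 of 14 were higher in muscle, with a median difference of 1.48. No slide or scan day held both tissues, so batch and group cannot be told apart except through other tissues of the same days. With the scan day as a block Kcnq5 was at 1.13 (adjusted p = 0.102), and with the processed signals at 1.16 (adjusted p = 0.219).

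Chrnd and Chrng encode the delta and gamma subunits of the acetylcholine receptor of the nerve-muscle junction, the gamma subunit being the one of fetal and denervated muscle. Both probes were dim. Chrnd ranged from -0.33 to 0.3 over all arrays, and muscle gave 0.24, not above background, and 0.3, which was. Its F-test (adjusted p = 0.0404) was lost in 3 of 9 other settings, with 0.317 as the highest adjusted p, and when any 1 of 16 arrays was left out. Chrng was above background on 3 arrays: the first muscle array at 1.05, the second skin array at 1.88 and the first eye array at -0.46. The second muscle array was at -0.57 and the first skin array at -0.57, and the arrays of the tissues not named ranged from -0.82 to -0.08. The 2 arrays of muscle and of skin thus disagreed, and the probe was not tested. The upstream sequence of Chrng is shown with that of Cacna1s because both belong to the muscle members. Each is the 250 bases before an annotated start, from RefSeq on GRCm38.p6, 5′ to 3′ on the gene's strand. For Cacna1s the gene's own first base in RefSeq lies a few bases inside the window. The printed windows have the letters CAGCTG in capitals, the E-box type known from muscle genes.
Cacna1s, chr1:136052561-136052810, plus strand: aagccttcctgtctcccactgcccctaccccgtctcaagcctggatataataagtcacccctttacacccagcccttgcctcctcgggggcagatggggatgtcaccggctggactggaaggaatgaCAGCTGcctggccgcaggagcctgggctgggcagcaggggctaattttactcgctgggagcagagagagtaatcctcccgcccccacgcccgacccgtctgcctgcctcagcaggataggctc
Chrng, chr1:87205561-87205810, plus strand: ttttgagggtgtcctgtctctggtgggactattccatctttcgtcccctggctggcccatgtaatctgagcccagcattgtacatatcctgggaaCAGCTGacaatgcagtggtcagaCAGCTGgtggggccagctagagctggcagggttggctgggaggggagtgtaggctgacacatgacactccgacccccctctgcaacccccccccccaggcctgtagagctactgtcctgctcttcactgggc
The match lay at -123 in Cacna1s and at -155 and -132 in Chrng, counted from the end of the window. The motif reads the same on both strands. It was chosen with the values known, occurred in 13% of all 32851 windows of this length, and was found for 7 of 11 skeletal muscle, 5 of 15 neuron, 4 of 14 retina and lens and 2 of 6 smooth muscle markers. Lists chosen by function had it for 1 of 8 receptors, 1 of 4 other channels, 0 of 8 channel partners and 0 of 10 lysosome and proton pump genes. These are counts of genes, some with several windows, and cannot be set against the share of windows. Of the 14 members with a window, 4 held it, Htr2b and Kcne4 being the others. A match is a description of letters, not of a bound site.

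**Figure D3:**
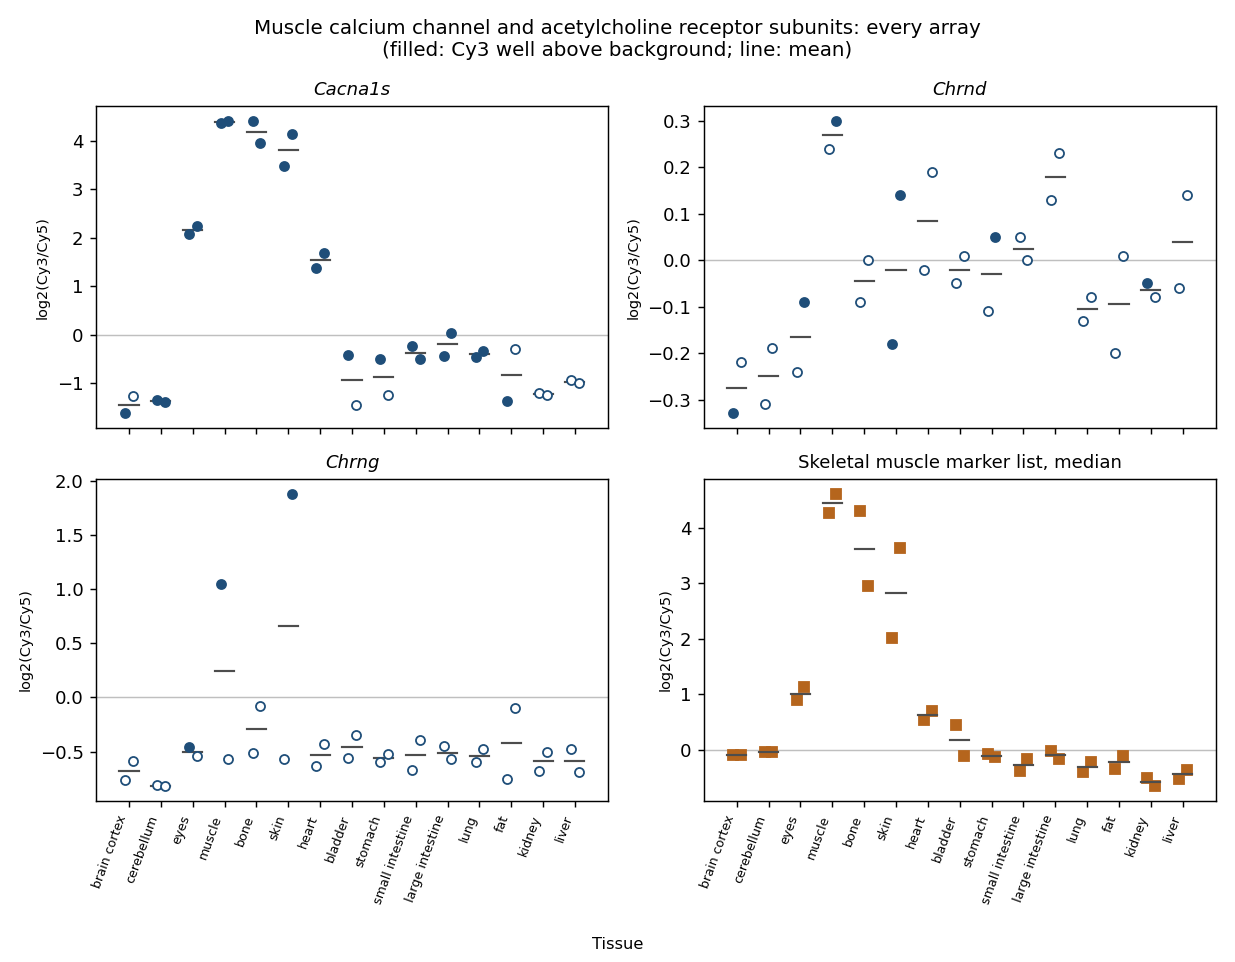
Log2(Cy3/Cy5) on every array (vertical axes) of Cacna1s, Chrnd and Chrng and the median of the 14 skeletal muscle markers, by tissue (horizontal axes), with filled points for Cy3 well above background and a short line at the mean. Cacna1s is high in muscle, bone and skin, the same tissues in which the marker median exceeds 2, and the 2 arrays of muscle and of skin disagree for Chrng.

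Htr2b, a serotonin receptor known for the contraction of the stomach wall, was highest in the gut. Its log2 ratio was 1.43 and 2.1 in small intestine, 1.55 and 1.35 in stomach and 2.2 and 0.48 in large intestine. Lung followed with 0.95 and 0.62, and eyes were also above background at 0.11 and 0.07. The second large intestine array lay below the lung arrays, so the gut and lung overlapped. Small intestine exceeded the other 14 tissues by 1.4 ± 0.25 (adjusted p = 0.000127), stomach by 1.07 ± 0.25 (adjusted p = 0.00211) and large intestine by 0.95 ± 0.25 (adjusted p = 0.00368), all under the log2 difference of 2. In 8 tissues neither array was above background, and small intestine was at least 2.39-fold to 2.72-fold higher in Cy3 level.

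Kcne4 encodes an accessory subunit that lowers the current of several potassium channels. It was above background on 28 of 30 arrays, with 3.37 and 3.38 in bladder, 3.15 and 2.22 in lung and 1.79 and 1.48 in stomach. Large intestine gave 2.23 and 1.04, fat 2.44 and 0.58 and small intestine 1.5 and 1.75, whereas liver gave 0.15 and 0.12, neither above background. Bladder exceeded the other 14 tissues by 2.15 ± 0.31 (adjusted p = 3.39e-05, beside 2.34% of probes enriched there) and liver by at least 13.7-fold in Cy3 level. Lung was higher by 1.41 ± 0.31 (adjusted p = 0.00122). With the processed signals the bladder difference was 0.91 (adjusted p = 0.282) and from the authors' table it was 1.17 (adjusted p = 0.121), and fat was then the highest tissue. It was also under the log2 difference of 2 with median centring (1.86) and with an offset of 10 (1.98). The smooth muscle and pericyte markers (6 probes) had medians of 3.42 and 3.55 in bladder, 2.99 and 2.8 in large intestine, 2.72 and 2.29 in stomach, 1.81 and 1.82 in muscle, 1.58 and 1.61 in heart, 1.4 and 2.04 in skin, 1.13 and 1.56 in lung and 1.71 and 0.38 in fat, against -0.21 and -0.06 in liver, and 3 of 6 were called enriched in bladder. The marker medians were also 1.43 and 2.14 in small intestine, 1.52 and 1.2 in bone, -0.1 and 0.03 in kidney and 0.41 to 0.94 in brain and eyes. Kcne4 itself was at 0.42 and 0.63 in bone and at 1.09 and 0.88 in kidney. The part of the markers in the Kcne4 values was not tested.

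Clcn7, the chloride and proton exchanger of lysosomes and of the bone-resorbing osteoclast, was above background on all 30 arrays. It gave 1.71 and 1.96 in liver, 1.66 and 1.35 in kidney, 1.79 and 0.66 in fat and 0.45 and 0.42 in small intestine. Bone, the tissue of osteoclasts, gave 0.88 and -0.02, and its 2 arrays enclosed those of small intestine. Liver exceeded the other 14 tissues by 0.93 ± 0.23 (adjusted p = 0.00197), under the log2 difference of 2, and the F-test (adjusted p = 0.0248) was lost without the first or second liver, the first kidney or the second small intestine array, with 0.105 as the highest adjusted p. The upstream sequences of Clcn6 and Clcn7, the transporters of endosomes and lysosomes, are shown in windows made the same way, with the letters CACGTG in capitals, an E-box type known from lysosomal genes.
Clcn6, chr4:148038814-148039063, minus strand: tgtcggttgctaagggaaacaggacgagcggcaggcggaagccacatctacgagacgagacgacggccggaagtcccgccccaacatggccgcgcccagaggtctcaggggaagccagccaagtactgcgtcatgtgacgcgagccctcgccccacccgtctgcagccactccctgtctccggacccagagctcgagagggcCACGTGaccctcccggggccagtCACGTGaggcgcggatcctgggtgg
Clcn7, chr17:25133141-25133390, plus strand: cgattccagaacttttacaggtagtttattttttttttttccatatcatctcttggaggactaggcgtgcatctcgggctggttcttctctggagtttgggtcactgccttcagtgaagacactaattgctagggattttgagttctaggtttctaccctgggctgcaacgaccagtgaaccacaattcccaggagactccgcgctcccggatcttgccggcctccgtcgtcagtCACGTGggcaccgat
The matches lay at -48 and -25 in Clcn6 and at -15 in Clcn7, counted as before. In Clcn7 the match spans the gene's first base in RefSeq, which lies inside this window, and the window of its other annotated start held no match. This motif, too, reads the same on both strands and was chosen with the values known. It occurred in 6.02% of all windows, in 4 of the 14 members with a window (Glrx2 and Kcne4 being the others) and in 1 of 10 lysosome and proton pump genes with one. Among the other lists it was found for 2 of 15 neuron, 1 of 14 retina and lens, 1 of 11 skeletal muscle and 0 of 6 smooth muscle markers. It was also found for 2 of 8 receptors, 1 of 8 channel partners and 0 of 4 other channels. These are again counts of genes, which cannot be set against the share of windows.

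**Figure D4:**
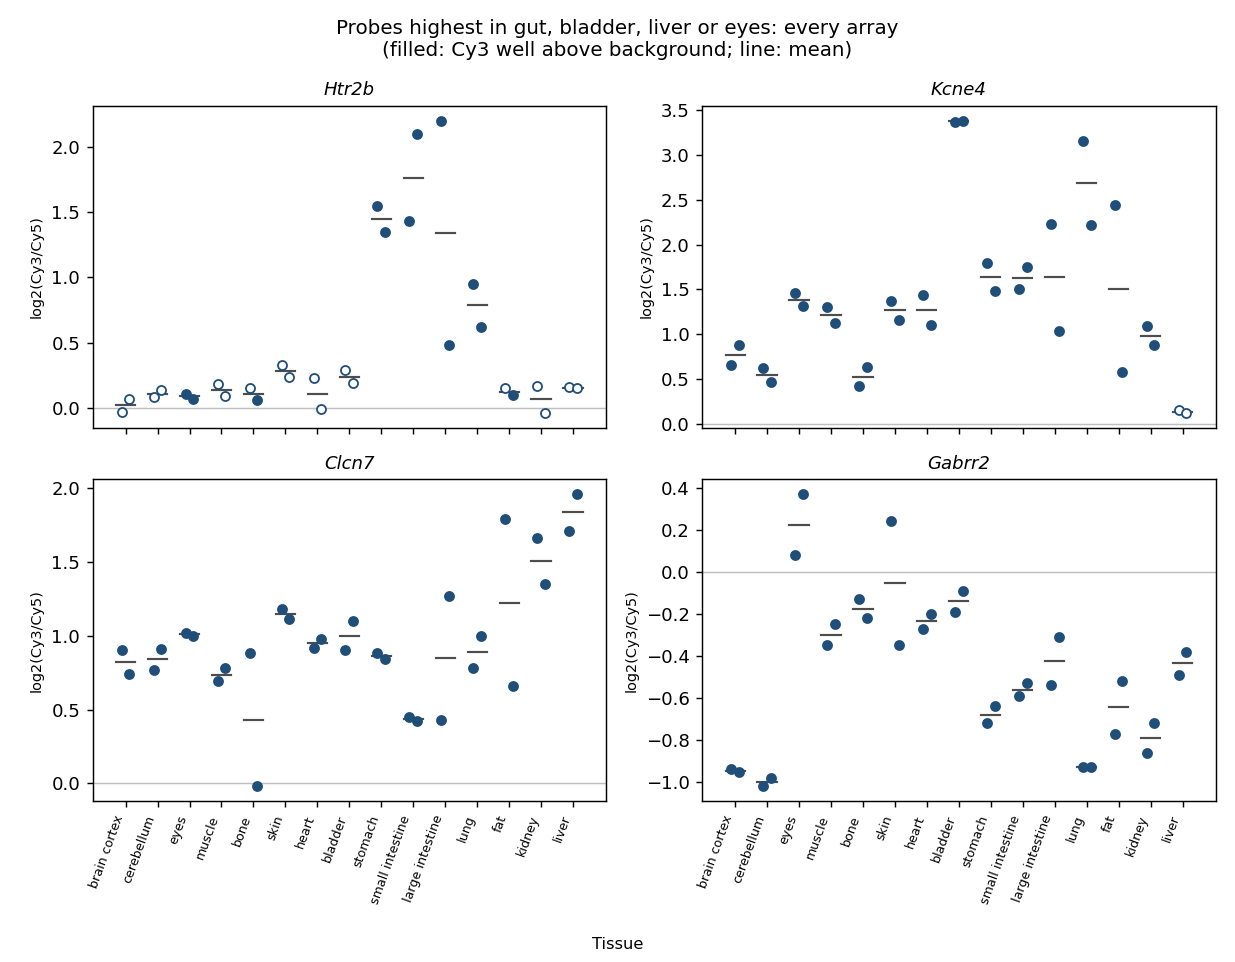
Log2(Cy3/Cy5) on every array (vertical axes) of Htr2b, Kcne4, Clcn7 and Gabrr2, by tissue (horizontal axes), with filled points for Cy3 well above background and a short line at the mean. Htr2b is highest in the gut tissues, Kcne4 in bladder (3.37 and 3.38), Clcn7 in liver and kidney and Gabrr2 in eyes, and the 2 arrays of fat differ for Kcne4 and Clcn7.

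Trpm8, the receptor of cold and menthol known from sensory neurons, was not well above background on any array, and its values of -0.21 to 0.21 carry no order. The sensory ganglia where it is known were not among the 15 tissues.

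Of the 4 members that share only a name with channels, Glrx2, Grinl1a and Scnm1 were above background on every array, as were the channels Clcn7 and Gabrr2, and Glrp1 was on 10 arrays. Glrx2 was highest in cortex (1.16 and 1.07) and heart (1.04 and 0.97), above the other 14 tissues by 0.8 ± 0.12 (adjusted p = 1.68e-05) and 0.68 (adjusted p = 0.000169). Its highest tissue became heart with the processed signals and the authors' table, and muscle by the Cy3 level alone. Grinl1a gave 0.99 and 0.8 in heart, 0.56 and 0.74 in muscle and -1.15 and -1.21 in liver, and heart was higher by 1.47 ± 0.15 (adjusted p = 3.66e-07). Scnm1 was at 1 and 1.06 in muscle and 0.84 and 0.9 in heart, against -0.09 and -0.18 in stomach, with muscle higher by 0.68 ± 0.1 (adjusted p = 1.48e-05). Glrp1 was called enriched in fat by 2.08 ± 0.31 (adjusted p = 5.15e-05, beside 1.59% of probes enriched there), but its fat arrays were at 1.95 and -0.33. Without the first fat array the difference was 0.94 and the call was lost. It was also lost with slide as a random block (1.68), median centring (1.89), the processed signals (adjusted p = 0.0752), Cy3 alone (adjusted p = 0.102) and the values in the authors' table (adjusted p = 0.0593).

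**Figure D5:**
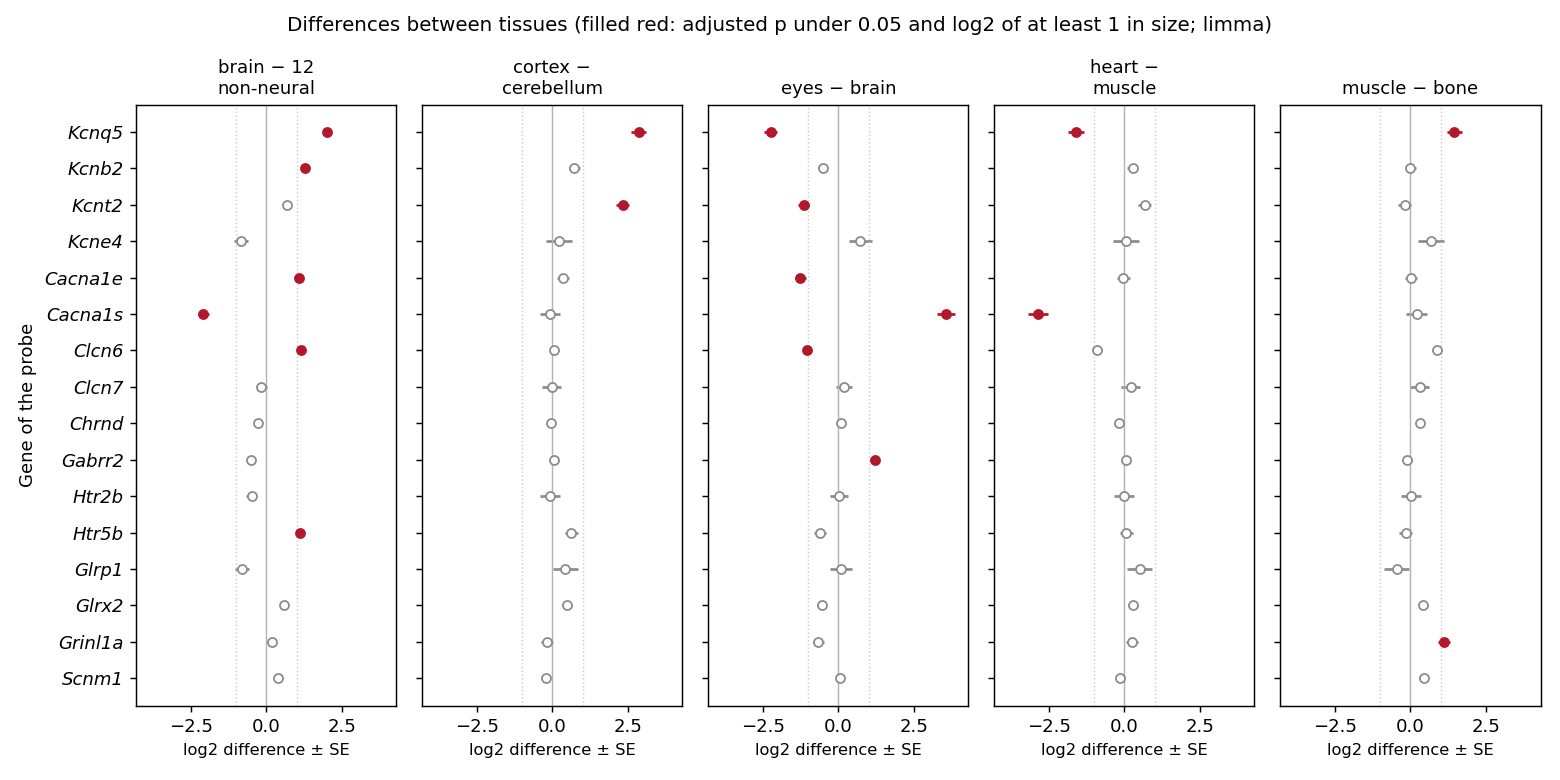
Log2 difference ± SE of the 16 tested members (vertical axis) in the 5 comparisons between tissues (horizontal axes), with filled red points for members called at an adjusted p under 0.05 and a log2 difference of at least 1 in size. Called members number 6 in brain against non-neural tissues, 2 in cortex against cerebellum, 6 in eyes against brain, 2 in heart against muscle and 2 in muscle against bone.

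Genes near the members in function were counted from lists chosen by function, with earlier results of these data known. Of 10 channels of other families, 2 were higher and 2 lower in brain than in the non-neural tissues, with a median of -0.14, where 15.5% of all probes were higher and 16.1% lower. The same shares apply to the counts of the other lists. The acid-sensing channels Accn2 (4.04, adjusted p = 6.98e-12) and Accn1 (3.5, adjusted p = 2.91e-10) rose, and the water channel Aqp1 fell by 4.3 (adjusted p = 1.01e-13). Of 16 other transmitter and hormone receptors tested, 6 were higher and 3 lower, with a median of 0.1. The angiotensin receptor Agtr1a fell by 3.35 (adjusted p = 2.73e-09), and the receptors Adcyap1r1 (2.63, adjusted p = 2.79e-13) and Adrb1 (2.35, adjusted p = 2.34e-13), for the peptide PACAP and for adrenaline, were higher. Adcyap1r1 was highest in cerebellum. Adrb1 was highest in lung (5.96) and heart (5.32), against 5.29 in cortex and 3.17 in cerebellum.

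Of 11 channel partners and anchors, proteins that bind channels or hold them at junctions, 6 were higher in brain and 0 lower, with a median of 1.28. Rims1, Cntn2 and Nfasc are also among the neuron markers and Jph1 among the skeletal muscle markers, so the lists are not independent. Dpp10, a subunit of potassium channels, differed by 4.64 (adjusted p = 7.03e-13), Rims1, a scaffold of the presynaptic release site, by 2.78 (adjusted p = 2.09e-09), and Abcc8, the sulfonylurea receptor, by 2.55 (adjusted p = 2.14e-08). Dpp10 and Rims1 were highest in cortex, although Rims1 was at 3.34 in bladder beside 3.45 in cortex. Abcc8 was highest in heart, at 4.21 against 3.41 in cortex and 3.52 in cerebellum. Jph1, which holds the transverse tubule beside the calcium store in muscle, differed between heart and muscle by -3.83 (adjusted p = 7.37e-08) and higher in muscle than in bone by 2.88 (adjusted p = 2.61e-06). Of 15 lysosome and proton pump genes, 5 were higher and 4 lower in brain, with a median of -0.32. Acp5, an acid phosphatase of osteoclasts and macrophages, differed by -3.88 (adjusted p = 4.43e-14), and the pump subunits Atp6v1a (2.54, adjusted p = 5.51e-09) and Atp6v1c1 (1.91, adjusted p = 1.4e-07) were higher. Over all probes the median in this comparison was -0.1.

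The named probes whose tissue pattern was most like each member were found by Pearson r over the 15 tissue means, which share arrays and a reference, so r is a description without a test. Cacna1s was nearest to Myl1 (0.945), a myosin light chain, 2310016D23Rik (0.924) and Myog (0.922), a regulator of muscle differentiation. Htr5b was nearest to 2610316D01Rik (0.982) and Ica1l (0.965), Kcnb2 to 2900052N01Rik (0.987), and Cacna1e to 3110035E14Rik (0.959), AB041806 (0.953) and Neu4 (0.948). Kcnq5 had looser neighbours, 6330527O06Rik (0.862) and Cntnap5a (0.854). Htr2b was nearest to 1810007E14Rik (0.964), 2210009P08Rik (0.955) and Fzd5 (0.942), a Wnt receptor. Clcn6 followed Pcgf1 (0.95) and Vps33a (0.923), the latter a protein of endosome and lysosome fusion, and Glrx2 followed Opa1 (0.905), a protein of the mitochondrial inner membrane. Kcne4 (0.897), Clcn7 (0.859), Kcnt2 (0.842) and Gabrr2 (0.841) had nearest neighbours below 0.9.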

How the data were processed

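RNA of 15 mouse tissues (Cy3) was hybridised with a common reference (Cy5) on 30 two-colour Agilent arrays of 11 slides, scanned on 5 days, with no dye swap. The deposited spot files hold mean signal and local background as intensity, processed signals by the authors' software, and flags as other values. The deposited value table is on a log10 scale. Set against the spot files over 11700 bright probes, its deviations per probe followed the processed log ratio with slope 1 and R² 1, while its column medians of 2.5 to 2.65 are those of a Cy3 level. It was used for the list of probes and as an alternative.

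Here, normexp (offset 50) and loess within arrays gave log2(Cy3/Cy5), without control spots and 475 outlier spots (0.0377%). Spots of a probe were averaged. No member spot was saturated. limma 3.58.1 in R 4.3.3 was fitted to 21025 probes with 1 coefficient per tissue, 21 comparisons in all, and adjusted over all probes. The fit was tested on simulated data. Symbols came from the study's probe lists and matched RefSeq symbols for all 18 members. All members were named, with up to 3 genes of each list with the largest difference and the probes most like each member. Members, lists and motifs were chosen with earlier results of these data known. A marker list is not reported here. Replicate numbers were not treated as pairing the arrays. Over 105 pairs of tissues the correlation of deviations ran from -0.25 to 0.34 with a median of 0.047, and 33 were over 0.1. A shared animal need not raise every pair, so these values do not settle whether the numbers pair the arrays. Alternatives were other background corrections and scalings, the Cy3 level alone, the authors' table, other filters, slide, scan day or replicate as a block, and leaving out arrays.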

Additional observations from a re-analysis of the deposited data

How the results depend on the processing

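Counts of called members changed with the treatment of dim and bright signal. For brain against non-neural tissues the count of 6 became 3 with median centring and 10 by Cy3 alone. For eyes against brain it became 3 with median centring. For heart against muscle the count of 2 became 4 with an offset of 10, 5 with the processed signals, 4 with the Cy3 level alone and 5 with the authors' table. For cortex against cerebellum it became 1 with the processed signals and with the authors' table. The 6 enriched pairs became 21 with the processed signals, 20 with the Cy3 level alone and 20 with the authors' table. The median information of 0.112 bits became 0.237 with an offset of 10, 0.459 with the processed signals and the authors' table and 0.635 with the Cy3 level alone. Leaving out each array gave 14 to 16 members by the F-test, 5 to 7 enriched pairs, 4 to 6 members in brain, 2 to 4 in cortex against cerebellum (4 without the second cortex array), 5 to 6 in eyes against brain, 2 in heart against muscle and 2 in muscle against bone, and 0.0861 to 0.155 bits. With the replicate number as a block the counts were 16, 6, 6, 2, 6, 2 and 2, as without it, and no call changed. Leaving out the first fat and first large intestine array together, chosen after seeing the data, gave 5 enriched pairs. Over 957 repeats of 24 single calls, 927 held, 30 did not and 0 reversed. The causes were not tested. Without the first cortex array brain fell to 4, and Glrp1 was no longer enriched in fat without the first fat array and in 5 other settings. Signal over background limits the dim members: Cacna1e, Kcnb2, Htr5b, Htr2b and Chrnd were above background on 4 to 12 arrays, and bone and fat may rest on 1 animal each.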
